A study of Mus musculus with 64 samples.

Results

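The comparison set the gene response to loss of MORC1 against the response to loss of DNMT3L in whole testis of mice at P10.5 (postnatal day). It used 15 of the 64 samples of the series, each an mRNA-Seq library of the testis of 1 mouse. In the *Morc1* line, 3 *Morc1* tg/tg libraries were compared with 2 *Morc1* tg/+ libraries and 1 *Morc1* +/+ library. A further *Morc1* +/+ and a further tg/+ library of P10.5 testis, both labelled preliminary, were left out. In the *Dnmt3l* line, 3 *Dnmt3l* -/- libraries were compared with 3 *Dnmt3l* +/+ and 3 *Dnmt3l* +/- libraries. *Morc1* tg is an insertion of a tyrosinase transgene in the *Morc1* gene of FVB/N mice, which removes exons of the ATPase domain, whereas *Dnmt3l* - is a knockout allele on a strain background that the sources used here do not state. The effect in each line was the log2 fold change of mutants over their own controls, and the difference between the lines was the *Morc1* effect minus the *Dnmt3l* effect, tested as an interaction in 1 fit of all 15 libraries. The line, its strain background and its set of libraries cannot be told apart, and a shift that mutants and controls of a line share drops out of the difference.

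DNMT3L has no catalytic activity of its own and helps DNMT3A to methylate DNA in fetal male germ cells, before birth. MORC1 belongs to a family of ATPases that silence transposons, and male mice without either protein are infertile because their germ cells fail in meiosis. At P10.5 the tubules hold Sertoli cells, undifferentiated spermatogonia that include the stem cells, differentiating spermatogonia that carry the receptor KIT, and the first cells to enter meiosis after retinoic acid has induced *Stra8*.

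The 6 libraries of the *Morc1* line held 25144796 to 38113208 reads on genes, and the 9 of the *Dnmt3l* line 28500020 to 42137954. *Morc1* itself had 10.22, 6.29 and 6.46 RPKM (reads scaled to exon length and library depth) in the *Morc1* +/+ and tg/+ libraries and 2.41, 2.06 and 2.32 in tg/tg. It was also lower in *Dnmt3l* -/- (6.28, 6.41 and 7.04 RPKM) than in the 6 controls of that line (11.2 to 15.7, median 12.3), and the fall was larger in the *Morc1* line (difference -0.90 ± 0.21, SE, adjusted p = 0.009). *Dnmt3l* had 0.0402, 0.037 and 0.0464 RPKM in *Dnmt3l* -/- and 0.374 to 1.02 in its controls, while in the *Morc1* line its effect was -0.58 ± 0.34 and did not pass the test (adjusted p = 0.346). Reads of *Tyr*, which the transgene carries, were at 0 in *Morc1* +/+ and in all libraries of the *Dnmt3l* line and at 0.595 to 1.17 RPKM in the 5 *Morc1* tg carriers. The 15 libraries therefore carried the genotypes of their labels as far as these genes show. *Dnmt3l* -/- replicate 3 stood apart from the other 2 mutants of its line. On the second principal component it lay at -42.6 and they at -60.1 and -60.4, and its summed levels of germ cell, early meiosis and piRNA genes were the highest of the 3. The controls of that line were not uniform either. On the same component *Dnmt3l* +/+ replicate 3 lay at 4.65 and +/- replicate 3 at 2.13, and the rest at 13.1 to 18.8.

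Loss of DNMT3L changed far more genes than loss of MORC1. Of 15902 genes tested, 257 were higher (1.62%) and 826 lower (5.19%) in *Morc1* tg/tg, which is 6.81% in either direction, and 5020 were higher (31.6%) and 4366 lower (27.5%) in *Dnmt3l* -/-, or 59.0% (edgeR's quasi-likelihood test with Benjamini-Hochberg adjustment, adjusted p under 0.05, here named a call). Where each line was fitted alone, 2326 genes were called in *Morc1* tg/tg and 8439 in *Dnmt3l* -/-. The gene lists below were counted in the joint fit only. In that fit the difference itself was called for 2797 genes (17.6%). For 1502 of them (9.45%) the *Morc1* effect was the higher and for 1295 (8.14%) the lower. Most of what moved in *Morc1* tg/tg also moved in *Dnmt3l* -/-. Of the 257 genes that rose in *Morc1* tg/tg, 217 (84.4%) also rose in *Dnmt3l* -/-, and of the 826 that fell, 800 (96.9%) also fell. Those genes made up 4.32% and 18.3% of the lists of *Dnmt3l* -/-. Across the genes tested, the 2 effects correlated at r = 0.49 (Spearman's rho = 0.61), given as a description because genes are not independent and the libraries of a line are shared.

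Genes were then grouped by the 3 tests. A gene was taken to respond in 1 line only where its effect was called in that line and not in the other, and where the difference between the lines was called too. Under this rule 2360 genes responded in the *Dnmt3l* line only (1223 higher, 1137 lower) and 17 in the *Morc1* line only (13 higher, 4 lower). In the first group, the 95% interval of the *Morc1* effect lay within 1.5-fold of no change for 1097 of the higher and 819 of the lower genes. The median *Dnmt3l* effect was 0.54 in the higher genes, which is itself inside that bound, and -0.73 in the lower genes. For the higher genes the bound therefore does not show that a response was absent. Another 381 genes were called in both lines the same way but with a different size, and the effect was larger in *Dnmt3l* -/- in 44 of the 47 that rose and 333 of the 334 that fell. A further 636 were called in both with no difference called (170 higher, 466 lower), 4 were called in opposite directions, and 35 differed between the lines without a call in either. In the plot of both effects, *Dnmt3l*-only genes spread along the vertical axis and shared genes with no difference called along the diagonal. The rule that grouped the genes sets these positions. The counts depended on single libraries. Genes with a called difference fell to 1755 without *Morc1* +/+ replicate 1, 1753 without *Morc1* tg/tg replicate 1 and 1817 without *Dnmt3l* -/- replicate 2, and *Dnmt3l*-only genes fell to 1551, 1486 and 1480 without the same libraries and to 1527 without *Dnmt3l* -/- replicate 1. Genes called in the *Morc1* line fell to 549 without *Morc1* +/+ replicate 1, 499 without *Morc1* tg/+ replicate 3, 515 without *Morc1* tg/tg replicate 2 and 404 without *Morc1* tg/tg replicate 3. Without *Dnmt3l* -/- replicate 3 the counts rose, to 4021 genes with a called difference and 3414 *Dnmt3l*-only genes. Without *Dnmt3l* +/- replicate 3 they were 3375 and 2875.

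**Figure D1:**
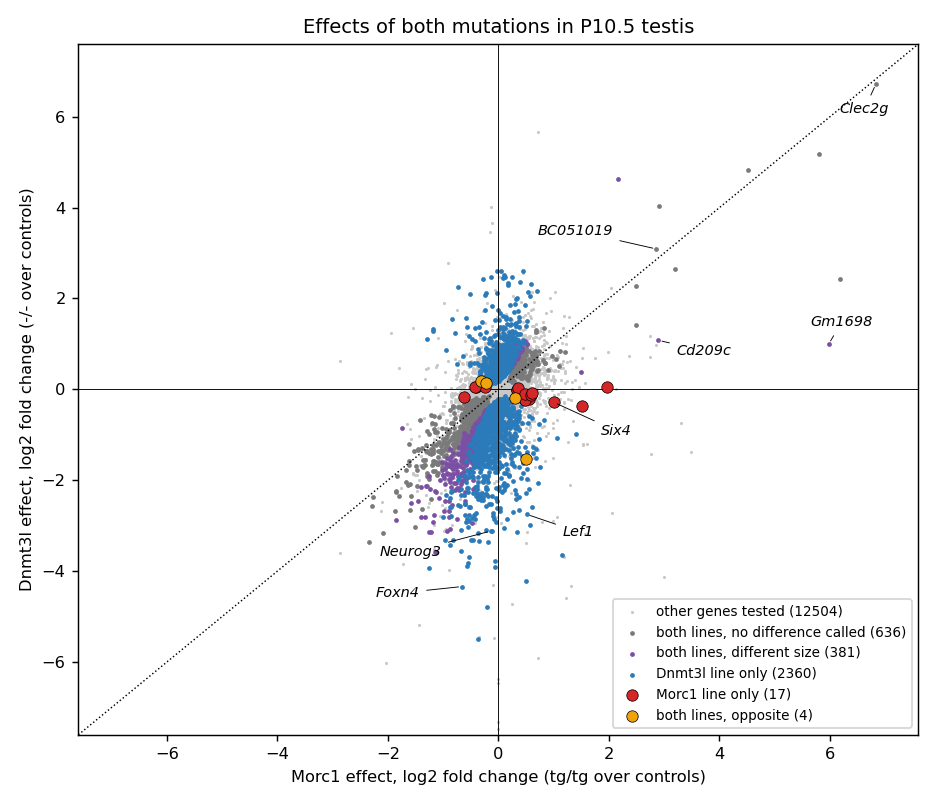
Each point is a gene tested in P10.5 testis, with the log2 fold change of *Morc1* tg/tg over controls on the horizontal axis and of *Dnmt3l* -/- over controls on the vertical axis, coloured by how it was called; the dotted line marks equal effects. The 2360 *Dnmt3l*-only genes lie near the vertical axis, and the 17 *Morc1*-only genes near the horizontal axis. The 636 genes called in both lines with no difference called lie near the dotted line. The rule that grouped the genes sets these positions. Not drawn are 9 genes outside the axes of 7.6.

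The largest falls in the *Dnmt3l* line only included the following. *Neurog3* (ENSMUSG00000044312, mm9 chr10:61595838-61597511) encodes a transcription factor of spermatogonia that are about to differentiate. It had 0.236, 0.377 and 0.614 RPKM in *Dnmt3l* -/- against 2.84 to 4.89 in the controls (median 3.92), whereas *Morc1* tg/tg (2.46, 1.49 and 1.41) overlapped its controls (1.64, 1.96 and 2.28). The log2 effects were -3.11 ± 0.27 and -0.13 ± 0.27, and the difference of 2.98 ± 0.38 was called (adjusted p = 7.46e-05).

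*Lef1* (ENSMUSG00000027985, mm9 chr3:130813389-130927274), a transcription factor at the end of Wnt signalling, had 0.219, 0.293 and 0.27 RPKM in *Dnmt3l* -/- and 1.6 to 2.05 in the controls. In *Morc1* tg/tg it had 1.3, 1.28 and 1.04 RPKM against 0.742, 1 and 0.805. The *Morc1* libraries thus lay above their controls while the *Dnmt3l* libraries lay below theirs, but the *Morc1* effect of 0.51 ± 0.15 did not pass the test (adjusted p = 0.0506), and the difference did (3.26 ± 0.21, adjusted p = 2.6e-07). *Clic6*, of the chloride intracellular channel family, had nearly the same level in the controls of both lines. It had 0.342, 0.672 and 0.743 RPKM in *Dnmt3l* -/- against 4.05 to 5.38 in the controls, and 5.34, 4.61 and 4.03 in *Morc1* tg/tg against 4.55, 4.84 and 5.19. Its *Morc1* effect was -0.05, with a 95% interval of -0.37 to 0.27, and its *Dnmt3l* effect was -2.91.

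The other 3 genes named by the rule, like *Neurog3* and *Lef1*, had lower levels in the *Morc1* controls than in the *Dnmt3l* controls. *Foxn4*, a forkhead factor known from retina and spinal cord, had 0.0403, 0.0371 and 0.105 RPKM in *Dnmt3l* -/- and 0.982 to 1.63 in the controls, but the *Morc1* controls had only 0.215, 0.365 and 0.338. *Dppa3*, which protects maternal DNA methylation in the zygote and marks primordial germ cells, had 0.0292, 0.162 and 0.0759 RPKM against 0.951 to 1.83 and, in the *Morc1* controls, 0.483, 0.515 and 0.549. For both genes the 3 *Morc1* tg/tg libraries also lay below all their controls, with effects of -0.66 ± 0.32 and -0.55 ± 0.38 that did not pass the test (adjusted p = 0.241 and 0.433). In all, the *Morc1* mutants lay below all controls for 18.3% of genes tested and above them for 16.4%, and in the *Dnmt3l* line the shares were 22.4% and 23.3%. *Fam183b* was at 0.129, 0.198 and 0.149 RPKM in *Dnmt3l* -/- against 1.11 to 2.22 in the controls. In the *Morc1* line it had only 9, 5 and 2 reads in tg/tg and 2, 5 and 3 in the controls, too few to show a fall.

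The largest rises in the *Dnmt3l* line only included the following. *Slc39a4* (ENSMUSG00000063354, mm9 chr15:76442815-76447322), the zinc importer of the gut, had 2.23, 1.8 and 2.42 RPKM in *Dnmt3l* -/- and 0.324 to 0.483 in the controls (median 0.43). In the *Morc1* line it had 0.53, 0.567 and 0.46 RPKM in tg/tg and 0.465, 0.515 and 0.497 in the controls, so that the groups overlapped. The difference was -2.37 ± 0.25 (adjusted p = 1.33e-05). *Miox*, which breaks down myo-inositol in kidney, had 7.22, 5.86 and 4.55 RPKM against 0.766 to 1.49 in the *Dnmt3l* line and 1.82, 2.51 and 1.79 against 2.34, 1.06 and 2.28 in the *Morc1* line. The differences of the other 4 genes named by the same rule were -2.41 for *Fam155a*, a subunit of a sodium leak channel, -2.22 for *Spna1*, the alpha spectrin of red blood cells, -2.16 for *Serpina12*, an adipokine, and -2.15 for *G530011O06Rik*. *Serpina12* had only 7 to 22 reads per library in the *Morc1* line.

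**Figure D2:**
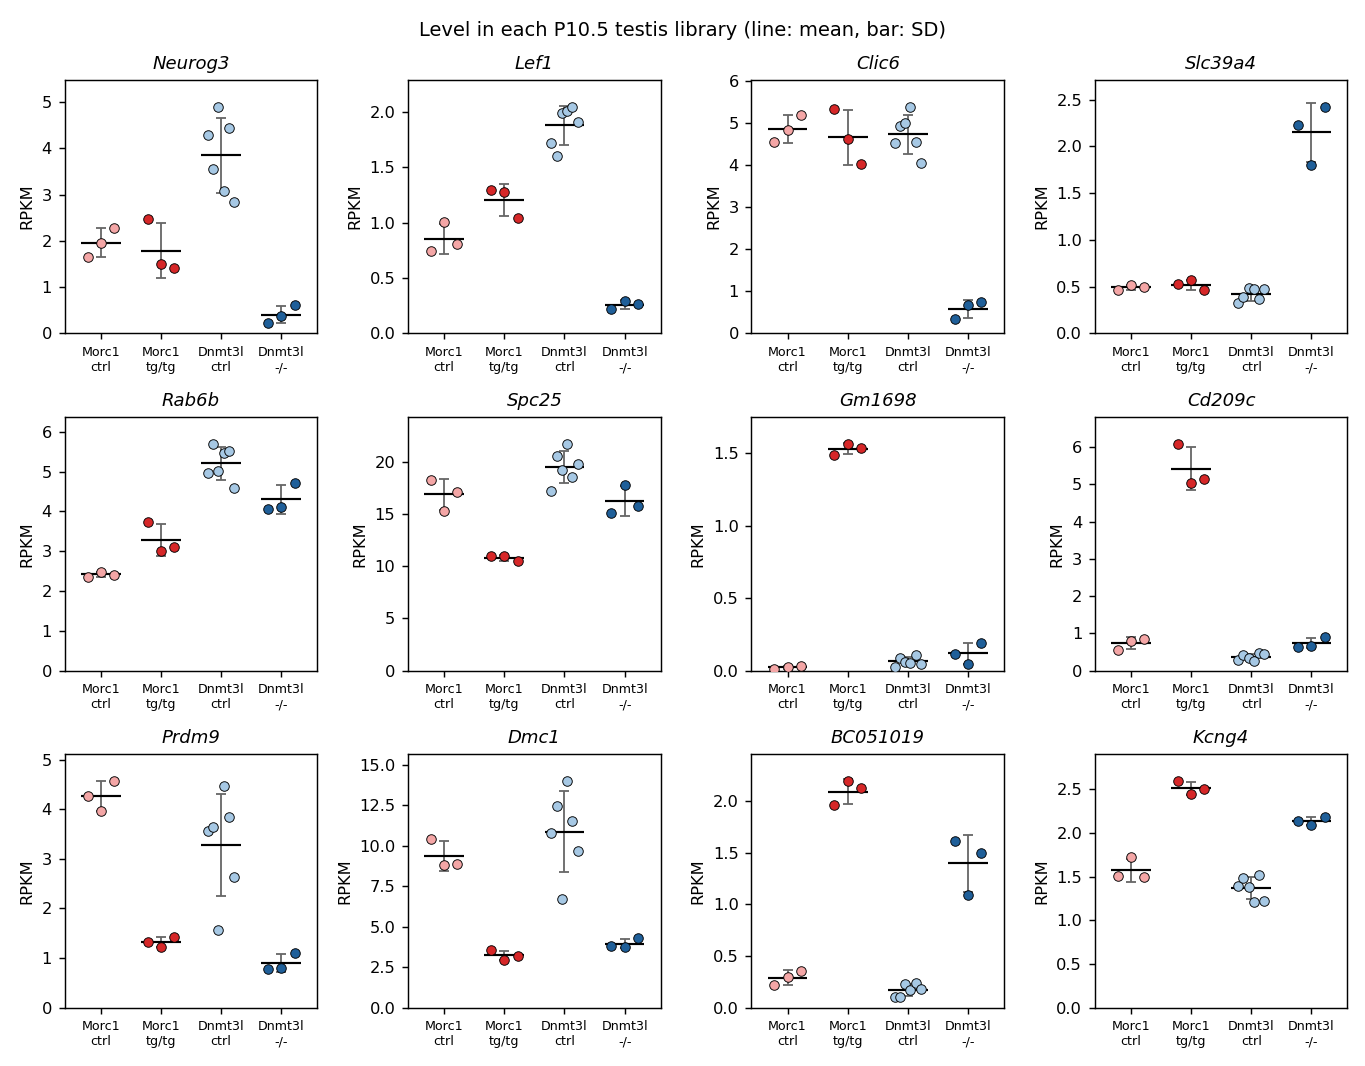
Level in RPKM of 12 genes in each of the 15 libraries, on linear axes that start at 0, with 1 point per library, a line at the mean of a group and a bar of 1 SD. *Neurog3*, *Lef1* and *Clic6* were low and *Slc39a4* high in the *Dnmt3l* -/- libraries alone; *Rab6b* and *Spc25* moved in *Morc1* tg/tg; *Gm1698* and *Cd209c* rose further in *Morc1* tg/tg than in *Dnmt3l* -/-; and *Prdm9*, *Dmc1*, *BC051019* and *Kcng4* moved in both lines.

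Lists of genes with known roles were then counted. Over all genes tested, 6.81% were called in *Morc1* tg/tg and 59.0% in *Dnmt3l* -/-, and each count below is to be read against these shares. Of 12 general germ cell genes, 8 fell in *Morc1* tg/tg and 12 in *Dnmt3l* -/-, with median log2 effects of -0.33 and -1.24, against 0.01 and 0.05 over all genes tested, and the difference was called for 11. The summed level of these genes was 448 to 457 RPKM in the *Morc1* controls and 296 to 336 in tg/tg, and 568 to 722 in the *Dnmt3l* controls and 221 to 271 in -/-. Fewer germ cells and less RNA per germ cell cannot be told apart in whole testis. The part that this fall had in the results for single genes was not tested.

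Genes of undifferentiated spermatogonia were called in the *Dnmt3l* line. None of 19 was called in *Morc1* tg/tg, while 10 fell and 5 rose in *Dnmt3l* -/- and 12 passed the rule for the *Dnmt3l* line only. No call among 19 genes is near the 6.81% of all genes in *Morc1* tg/tg, and the difference was called for 12 of the 19, against 17.6% of all genes. *Zbtb16*, which maintains the stem cells, had 7.01, 6.64 and 9.18 RPKM in *Dnmt3l* -/- against 16 to 19.2 in the controls, and 19, 17.8 and 15.7 in *Morc1* tg/tg against 14.8, 18.9 and 15.8. *Sall4* fell by 1.67 on the log2 scale and *Utf1*, a chromatin factor of early spermatogonia, by 2.15. The genes that rose in *Dnmt3l* -/- were *Gfra1* and *Ret*, which form the receptor for GDNF, with *Id4*, *Etv5* and *Lhx1*, and of these 5 the difference between the lines was called for *Gfra1* and *Id4*. *Id4*, which marks stem cells, had 5.79, 6.25 and 6.1 RPKM in *Dnmt3l* -/- against 3.35 to 4.23 in the controls, and 4.6, 4.86 and 4.71 in *Morc1* tg/tg against 4.68, 6.18 and 5.36 (difference -0.99 ± 0.14, adjusted p = 0.000243). The summed level of the list was 131 to 140 RPKM in the *Morc1* controls and 131 to 146 in tg/tg, which overlapped, but 155 to 179 in the *Dnmt3l* controls and 101 to 111 in -/-.

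Genes of differentiating spermatogonia fell in both lines. Of 8 genes, 6 fell in *Morc1* tg/tg and 7 in *Dnmt3l* -/-, with median effects of -0.57 and -1.72, and 7 differences were called with the *Morc1* effect the higher. *Stra8* had 13.2, 10.3 and 12.3 RPKM in *Morc1* tg/tg against 36.4, 28.3 and 35.1, and 7.12, 7.58 and 12.4 in *Dnmt3l* -/- against 43 to 63. No mutant library reached a control in either line, and the fall was larger in *Dnmt3l* -/- by 0.98 ± 0.24 (adjusted p = 0.0102). *Ccnd2*, a G1 cyclin, rose by 0.77 ± 0.09 in *Dnmt3l* -/- and had an effect of 0.11 ± 0.11 in *Morc1* tg/tg that did not pass the test (adjusted p = 0.595).

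The programme of early meiosis fell in both. Of 31 genes, 27 fell in *Morc1* tg/tg and 31 in *Dnmt3l* -/-, with median effects of -0.92 and -1.43, and for 18 that were called in both no difference was called. For 10 of the 31 the difference was called, against 17.6% of all genes, each with the *Morc1* effect the higher. The summed level of the list was 317 to 522 RPKM in the *Dnmt3l* controls and 138 to 174 in -/-. In the *Morc1* line it was 356 to 362 and 182 to 203, so the *Dnmt3l* controls were spread more widely. *Prdm9*, which sets the sites of recombination, had 1.32, 1.22 and 1.42 RPKM in *Morc1* tg/tg against 4.27, 3.96 and 4.56 in the controls, and 0.779, 0.809 and 1.11 in *Dnmt3l* -/- against 1.57 to 4.46. The effects were -1.67 ± 0.26 and -1.77 ± 0.24. For *Dmc1*, the meiotic recombinase, they were -1.53 ± 0.19 and -1.36 ± 0.16. *Sycp3*, of the synaptonemal complex, fell by 1.01 in *Morc1* tg/tg and by 1.88 in *Dnmt3l* -/-, and there the difference was called (0.87 ± 0.21, adjusted p = 0.00905). Of 21 cell cycle genes, 18 fell in *Morc1* tg/tg and 19 in *Dnmt3l* -/-, with like medians of -0.43 and -0.50, and only *Cdk1* differed, with 0.51 ± 0.12 in *Dnmt3l* -/- and -0.22 ± 0.14 in *Morc1* tg/tg. Of 11 genes of later meiosis, 3 fell in *Morc1* tg/tg, and in *Dnmt3l* -/- 9 fell and 1 rose.

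Genes of the piRNA pathway, whose small RNAs guide methylation to transposons, fell in more cases in *Dnmt3l* -/-. Of 23 genes, 9 fell in *Morc1* tg/tg and 22 in *Dnmt3l* -/-. The difference was called for 20, each with the *Morc1* effect the higher, and 12 of them passed the rule for the *Dnmt3l* line only. *Ddx4*, *Mael*, *Tdrd1*, *Tdrd5*, *Tdrd9* and *Piwil2* are also in the list of general germ cell genes. Some other members are in the lists of undifferentiated spermatogonia and of meiosis. The median *Dnmt3l* effect was -1.18 here and -1.24 in the germ cell list. A response of the pathway apart from the fall of germ cell genes was not tested. *Mov10l1*, an RNA helicase that begins piRNA production, had 20, 18.3 and 17.6 RPKM in *Morc1* tg/tg against 24, 25 and 24.9, and 9.73, 10.4 and 12.8 in *Dnmt3l* -/- against 30.3 to 38.3. Of 22 X-linked genes of the germline, such as the *Xlr*, *Mage* and *Tex* families, 11 fell in *Morc1* tg/tg and 20 in *Dnmt3l* -/-, with 12 differences. Members of the *Xlr* family are near-identical copies, and since only uniquely mapping reads were counted, their levels are uncertain.

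**Figure D3:**
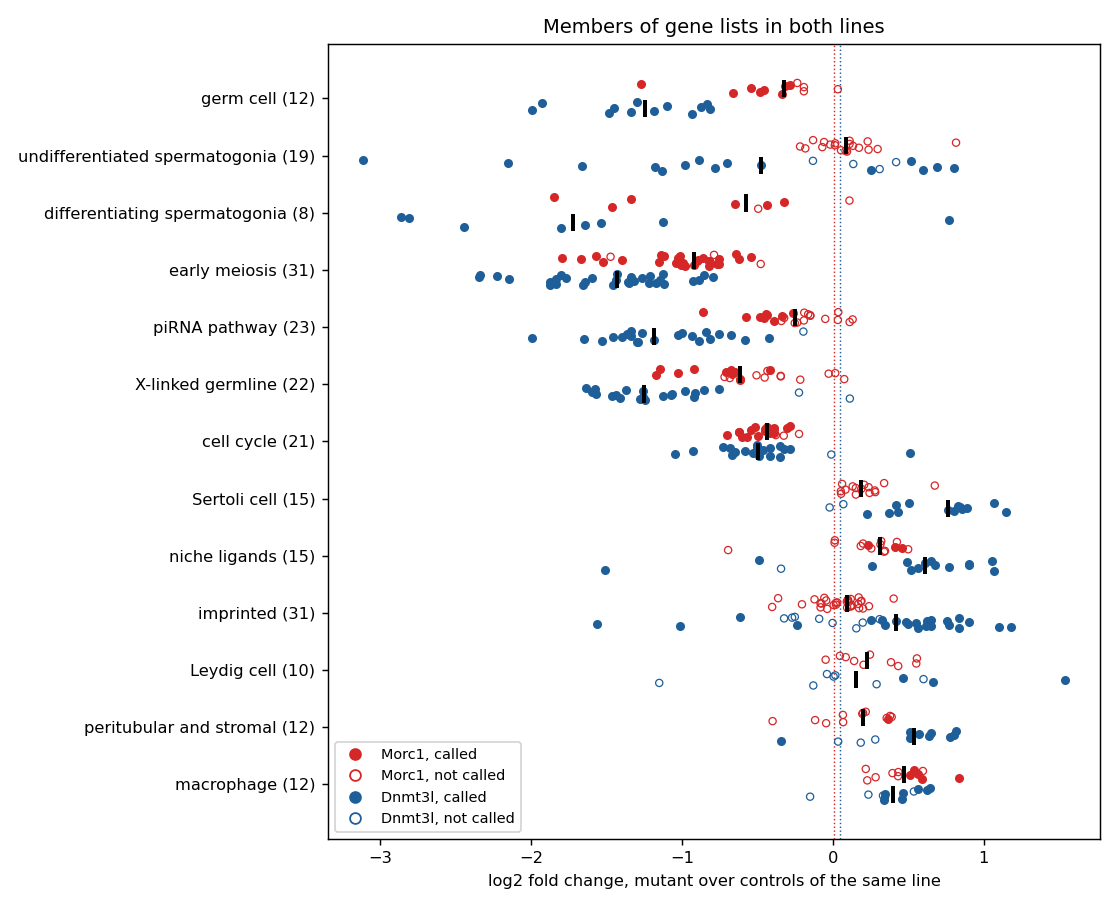
Log2 fold change of each tested member of 13 gene lists, in the *Morc1* line (red) and the *Dnmt3l* line (blue), filled where called, with a black bar at the median of the list and dotted lines at the medians of all genes tested. The list of undifferentiated spermatogonia has medians of 0.08 and -0.48, that of early meiosis -0.92 and -1.43 and that of Sertoli cells 0.19 and 0.76.

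Sertoli cell genes rose in *Dnmt3l* -/-. Of 15, 13 rose in *Dnmt3l* -/- and none was called in *Morc1* tg/tg, and the difference was called for 10. *Amh*, the hormone of immature Sertoli cells, had 422, 457 and 412 RPKM in *Dnmt3l* -/- against 147 to 252, and 250, 287 and 300 in *Morc1* tg/tg against 257, 225 and 233. *Gdnf*, the ligand of GFRA1 and RET, had 11.2, 13 and 12 RPKM against 5.35 to 7.23 in the *Dnmt3l* line and 8.4, 6.8 and 8.61 against 6.13, 6.73 and 6.14 in the *Morc1* line, with effects of 1.07 ± 0.09 and 0.34 ± 0.11 and a called difference (adjusted p = 0.00209). The summed Sertoli level, which includes *Amh* and *Gdnf*, was 4388 to 5683 RPKM in the *Dnmt3l* controls and 7012 to 7526 in -/-. In the *Morc1* line it was 5495 to 5708 in the controls and 5948 to 6652 in tg/tg, while *Amh* overlapped its controls there. The part that the share of Sertoli RNA had in the results for single genes was not tested.

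Other somatic lists were called in part. Of 15 ligands of the stem cell niche, which include *Gdnf*, 3 rose in *Morc1* tg/tg, and in *Dnmt3l* -/- 12 rose and 2 fell. Of 12 macrophage genes, 5 rose in *Morc1* tg/tg and 7 in *Dnmt3l* -/-, and no difference was called. Of 10 Leydig cell genes, none was called in *Morc1* tg/tg and 3 rose in *Dnmt3l* -/-, among them *Hsd17b3*, the last enzyme of testosterone synthesis, with 103, 138 and 81.4 RPKM against 28.4 to 48.5 (difference -1.40 ± 0.27). The list did not move as one, as its median in *Dnmt3l* -/- was 0.15. *Cyp17a1*, an earlier enzyme of the same pathway, had 20.9, 13.2 and 24.6 RPKM in *Dnmt3l* -/- against 6.49 to 75.6 in the controls, with an effect of -1.15 ± 0.56 that did not pass the test (adjusted p = 0.0868). Peritubular and stromal genes (12) had 1 rise in *Morc1* tg/tg and 8 rises and 1 fall in *Dnmt3l* -/-, endothelial genes (9) had 0 and 5 rises, and none of 5 blood genes was called. Immediate early genes (11), which respond to handling of tissue, had 0 and 5 rises. Of the 7 listed genes of the epididymis, 2 passed the filter on low counts. Their list summed to 0.051 to 34.5 RPKM in the *Dnmt3l* controls, highest in *Dnmt3l* +/+ replicate 1. It summed to at most 0.251 in *Dnmt3l* -/- and 0.0879 in the *Morc1* line. The 2 genes thus passed the filter through *Dnmt3l* controls, and their calls as falls in *Dnmt3l* -/- are no result about the mutants. Of 5 tested genes of skeletal muscle 2 fell in *Dnmt3l* -/- only. That list was highest in *Dnmt3l* +/- replicate 2, at 9.03 RPKM against a median of 3.00 in the *Dnmt3l* controls and 2.88 in -/-.

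Imprinted genes were counted because DNMT3L takes part in setting imprints in the germline, although RNA of whole testis does not separate germ cells from somatic cells. A link of the counts below to the setting of imprints was not tested. Of 31 imprinted genes, none was called in *Morc1* tg/tg, and in *Dnmt3l* -/- 19 rose and 4 fell, with a median of 0.42, beside the 6.81% and 59.0% of all genes called. The list of peritubular and stromal genes moved with them, with a median of 0.54 in *Dnmt3l* -/-, and the summed levels of both lists were highest in *Dnmt3l* +/+ replicate 3 among the controls and in *Dnmt3l* -/- replicate 2 among the mutants. The part of stromal RNA in the imprinted list was not tested. *Meg3*, a maternally expressed noncoding RNA, had 9.86, 8.45 and 9.12 RPKM in *Dnmt3l* -/- against 4.1 to 5.51, and 9.64, 13.6 and 13.4 in *Morc1* tg/tg against 13.7, 9.84 and 11.3 (difference -1.01 ± 0.18, adjusted p = 0.0015). *Phlda2* went down, by 1.56 in *Dnmt3l* -/-. Among 9 genes of DNA methylation itself, 3 fell in *Morc1* tg/tg, and in *Dnmt3l* -/- 4 fell, among them the deleted *Dnmt3l*, and 3 rose, the latter being *Tet1*, *Tet2* and *Tdg*, which take part in demethylation; none of these 3 was called in *Morc1* tg/tg. Of 17 genes that start near a region hypomethylated in *Morc1* mutants, a list chosen by the study and so no independent evidence, 2 rose in *Morc1* tg/tg (*Cdkl4* and *Tmc2*), and in *Dnmt3l* -/- 7 rose and 4 fell. *Tmc2*, of a family of channels of hair cells, had 0.198, 0.0999 and 0.159 RPKM in *Morc1* tg/tg against 0.0289, 0.0382 and 0.0328, and 0.477, 0.496 and 0.774 in *Dnmt3l* -/- against at most 0.039.

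Genes of retinoic acid, the signal for differentiation and meiosis, moved in both directions. Of 16, 3 rose and 4 fell in *Morc1* tg/tg, and 6 rose and 8 fell in *Dnmt3l* -/-. *Crabp1*, which binds retinoic acid in the cytoplasm, had 30.1, 26.7 and 23.1 RPKM in *Morc1* tg/tg against 55.5, 53 and 60, and 12.7, 11.9 and 17.8 in *Dnmt3l* -/- against 69.3 to 93.6. *Rara* rose by 0.62 ± 0.06 and *Rarb* fell by 1.01 in *Dnmt3l* -/- alone. Of 29 genes of interferon and nucleic acid sensing 1 rose in *Morc1* tg/tg, and 8 rose and 3 fell in *Dnmt3l* -/-. Of 15 p53 targets and apoptosis genes none was called in *Morc1* tg/tg, and 3 rose and 6 fell in *Dnmt3l* -/-. The calls among p53 targets were near the 6.81% and 59.0% of all genes, and those of the interferon list were near the first and below the second. Heterochromatin genes (14) had 3 falls in *Morc1* tg/tg, and 3 rises and 8 falls in *Dnmt3l* -/-. Sterol synthesis (16) had 2 falls against 1 rise and 8 falls, and the *Rhox* cluster (6) 1 fall against 1 rise and 4 falls. Of the 4 *Morc* genes tested 2 fell in *Morc1* tg/tg, 1 of them the disrupted *Morc1* itself, and 4 in *Dnmt3l* -/-. Of 2 fat genes 1 rose in *Dnmt3l* -/-, and no gene of the 2-cell embryo list passed the filter.

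Few genes responded in the *Morc1* line only. The median log2 effect was 0.48 for the 13 rises, 3 of which were over 2-fold, and -0.41 for the 4 falls. *Rab6b* (ENSMUSG00000032549, mm9 chr9:103014404-103087600), a small GTPase of the Golgi, had 3.73, 3.01 and 3.1 RPKM in *Morc1* tg/tg against 2.35, 2.48 and 2.41 in the controls, and 4.07, 4.11 and 4.72 in *Dnmt3l* -/- against 4.58 to 5.69. The *Morc1* libraries lay above all their controls, and the *Dnmt3l* groups overlapped. The effects were 0.45 ± 0.09 and -0.18 ± 0.08, and the difference was 0.63 ± 0.12 (adjusted p = 0.00235). *Six4*, a homeobox factor and outside the rule for named genes because its level was under 1 RPKM in the *Morc1* line, had 0.851, 0.803 and 0.761 RPKM against 0.359, 0.487 and 0.358 (effect 1.01 ± 0.20). In *Dnmt3l* -/- it had 0.926, 0.802 and 1.122 against 0.923 to 1.52.

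The remaining 11 rises of this kind ranged from 0.33 (such as *Parp8*) to 1.97 (*Cdkl4*, a kinase) on the log2 scale. *Mapk12*, a p38 kinase, rose by 0.55 ± 0.15, *Gyltl1b*, a glycosyltransferase, by 0.48 ± 0.13, *Itga1*, the integrin subunit of collagen receptors, by 0.48 ± 0.14, and *BC039771* by 0.61 ± 0.18. Other members, named here because the count is small and not by the rule, were *Ch25h*, *Parp8*, *Rragd*, *Sorbs2* and *4930539E08Rik*. Some of these rises rested on few reads: *Cdkl4* had 32, 36 and 29 in *Morc1* tg/tg against 6, 9 and 8, and *Ch25h* 10, 7 and 15 against 4, 2 and 4. The 4 falls were *Spc25*, a subunit of the kinetochore complex NDC80, *Rbl1*, of the retinoblastoma family, *Prdx4*, a peroxiredoxin of the endoplasmic reticulum, and *Col18a1*, a collagen of basement membranes that lies within 5 Mb of *Dnmt3l*. *Spc25* had 10.96, 10.93 and 10.47 RPKM in *Morc1* tg/tg against 18.2, 15.3 and 17.1, and 15.1, 17.8 and 15.8 in *Dnmt3l* -/- against 17.2 to 21.7 (effects -0.63 ± 0.09 and -0.17 ± 0.08, adjusted p of the difference 0.0132). For 10 of the 13 rises and all 4 falls, the 95% interval of the *Dnmt3l* effect lay within 1.5-fold of no change. That bound is wider than the median *Morc1* effects of these rises and falls (0.48 and -0.41). The bound by itself therefore does not show that a *Dnmt3l* response was absent. By the rule for the group, the difference between the lines was called for each of these genes. The group of 17 rested on single libraries: it held 3 genes without *Morc1* +/+ replicate 1 or *Morc1* tg/tg replicate 1, 11 and 9 without *Morc1* tg/+ replicates 2 and 3, 8 and 7 without *Morc1* tg/tg replicates 2 and 3, 11 without *Dnmt3l* +/+ replicate 2 and 30 without *Dnmt3l* -/- replicate 3. It also depended on the method, with 179 genes by voom and 53 where each line was fitted separately. The call of the difference was lost under 16 alternatives for *Prdx4*, 14 for *BC039771* and *Rbl1* and 13 for *Cdkl4*. No alternative setting or left-out library ended the call of the difference for *Rab6b*, *Gyltl1b*, *Spc25* or *Six4*.

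Among the genes called the same way in both lines with a called difference in size, the *Morc1* effect was the larger in 4: *Morc1* itself, *Gm1698*, *Cd209c* and *Ctsh*, named for their small number and not by the rule. *Gm1698* (ENSMUSG00000074404, mm9 chr8:28714823-28730924) had 1.49, 1.56 and 1.54 RPKM in *Morc1* tg/tg and 0.0133, 0.0264 and 0.0303 in the controls, and 0.115, 0.0484 and 0.191 in *Dnmt3l* -/- against 0.0226 to 0.108. The groups were far apart in the *Morc1* line and overlapped in the *Dnmt3l* line. The difference was 4.98 ± 0.66 (adjusted p = 0.000115). *Cd209c*, a C-type lectin, had 6.09, 5.04 and 5.16 RPKM against 0.558, 0.79 and 0.861 in the *Morc1* line and 0.642, 0.665 and 0.896 against 0.263 to 0.466 in the *Dnmt3l* line (difference 1.82 ± 0.28, adjusted p = 0.000398). *Ctsh*, the protease cathepsin H, had 2.47, 2.58 and 2.33 RPKM against 1.01, 0.726 and 0.91 in the *Morc1* line, whose controls were lower than the 5.93 to 8.72 of the *Dnmt3l* controls, with effects of 1.49 ± 0.21 and 0.39 ± 0.14.

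Called in opposite directions were 4 genes. *2010300C02Rik* had 2.88, 2.77 and 2.06 RPKM in *Morc1* tg/tg against 1.68, 1.99 and 1.85, and 0.979, 1 and 1.13 in *Dnmt3l* -/- against 2.48 to 3.55 (difference 2.03 ± 0.19, adjusted p = 6.85e-06). *Parn*, which trims poly(A) tails, rose by 0.30 ± 0.07 in *Morc1* tg/tg and fell by 0.19 in *Dnmt3l* -/-. *Pttg1*, the securin that holds sister chromatids together until anaphase, had 8.28, 8.33 and 8.43 RPKM in *Morc1* tg/tg against 11.5, 9.39 and 10.46. In *Dnmt3l* -/- it had 18.7, 19.6 and 19.8 RPKM against 17.1 to 19.4. These *Dnmt3l* groups overlapped in RPKM but not in log2 CPM, the scale on which the rule for named genes was set. *Rab28*, a small GTPase, had effects of -0.22 ± 0.06 and 0.14 ± 0.05. It was outside the rule because its *Dnmt3l* groups overlapped in log2 CPM as well.

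The response that both lines shared included genes nearly silent in controls. *Clec2g*, a C-type lectin, had 1.386, 1.053 and 0.9754 RPKM in *Morc1* tg/tg and 0.956, 1.22 and 1.52 in *Dnmt3l* -/-, against at most 0.0251 and 0.0381 in the controls. With 2 reads in the *Morc1* controls and 282 in tg/tg, the ratio of reads, scaled for library depth, was 128, with an exact 95% interval of 35.1 to 1063 that covers counting error only. *BC051019* had 1.96, 2.19 and 2.13 RPKM in *Morc1* tg/tg and 1.61, 1.09 and 1.49 in *Dnmt3l* -/-, against 0.221 to 0.359 and 0.105 to 0.241, with effects of 2.86 ± 0.25 and 3.09 ± 0.21. The difference of -0.23 had a 95% interval of -0.95 to 0.48. *Kcng4*, a potassium channel subunit, rose by 0.69 ± 0.10 and 0.74 ± 0.09. *Gdpd3* and *Hhatl* rose in both as well.

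The shared falls with the largest effects included the following. *Prss50*, of the serine protease family, had 4.33, 4.07 and 3.72 RPKM in *Morc1* tg/tg against 18.7, 15.7 and 17.3, and 1.24, 1.6 and 3.75 in *Dnmt3l* -/- against 11.1 to 28. *Gal3st1*, which makes the sulfolipid of germ cells, fell by 2.35 and 3.36, *Ly6k* by 2.29 and 2.57, *Otud6a*, a deubiquitinase, by 2.26 and 2.36, and *1700014N06Rik* by 1.85 and 2.26. No difference was called for these 5. *Esx1*, an X-linked homeobox gene of testis and placenta, had 6.24, 5.13 and 4.63 RPKM against 19, 21 and 17.8 in the *Morc1* line and 2.51, 2.38 and 5.02 against 17.5 to 30.6 in the *Dnmt3l* line, and its fall was larger in *Dnmt3l* -/- by 1.02 ± 0.31 (adjusted p = 0.0345), a call that was lost under 10 of the alternatives.

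The groups were then described by where their genes are expressed. Levels in sorted P10.5 germ cells of *Morc1* tg/+ mice, made with another library kit, were set beside those of the *Morc1* testis controls on the scale of log2(RPKM + 0.1). Of all genes tested, 19.8% were at least 4-fold lower in the sorted germ cells. The share was 49.7% among *Dnmt3l*-only rises, 1.23% among *Dnmt3l*-only falls, and 85.1% and 71.8% among genes that rose in both lines with and without a called difference in size. It was 0% and 0.215% among those that fell in both. The share at least 4-fold higher in the sorted germ cells was 1.11% of all genes, 1.93% of *Dnmt3l*-only falls, and 1.8% and 2.36% of those that fell in both. The X chromosome held 3.96% of genes tested, 7.03% of *Dnmt3l*-only rises, 2.29% of *Dnmt3l*-only falls, and 8.38% and 6.87% of the genes that fell in both lines. These shares were not tested.

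Further *Morc1* libraries that took no part in the grouping showed how these genes behaved elsewhere: 3 *Morc1* tg/tg and 3 tg/+ whole testes at P14.5, and germ cells sorted at P10.5 by their surface proteins from *Morc1* tg/tg and tg/+ mice (3 and 4 libraries). At P14.5, 14.8% of genes tested were higher and 20.1% lower, and in the sorted germ cells 6.43% were higher and 5.79% lower. Of the 13 *Morc1*-only rises, 12 were tested in each set, and 10 rose in the germ cells and 7 at P14.5, with none falling. The median effects were 0.99 and 0.47, beside 0.48 for the 13 in the P10.5 testis that chose them. The P10.5 germ cell libraries were made with another kit and the P14.5 testes are a different age, so the sizes were not compared by a test. *Six4* rose by 1.97 ± 0.20 in the germ cells, *Itga1* by 1.72 ± 0.22, *Mapk12* by 1.01 ± 0.15 and *Rab6b* by 0.99 ± 0.10. Of the 4 *Morc1*-only falls, 3 fell at P14.5 and 2 in the germ cells. *Gm1698* rose by 8.53 ± 0.30 in the germ cells and 2.07 ± 0.34 at P14.5, *Ctsh* by 4.96 ± 0.25 and 2.03 ± 0.15, and *Cd209c* by 3.84 ± 0.16 and 2.80 ± 0.16.

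The *Dnmt3l*-only falls were also looked up in *Morc1* germ cells. Of 1095 tested there, 149 were higher and 23 lower in *Morc1* tg/tg, with a median of 0.13. At P14.5, 294 of 1119 were lower and 54 higher. Of the *Dnmt3l*-only rises, 490 of 1192 were higher in *Morc1* tg/tg at P14.5 and 89 lower, beside 14.8% and 20.1% of all genes tested there. In the germ cells 54 of 1105 of these rises were higher and 106 lower. The name *Dnmt3l*-only therefore holds for the P10.5 testis and not for every *Morc1* sample. *Lef1* rose in *Morc1* tg/tg germ cells by 0.80 ± 0.16 (adjusted p = 0.00101), and *Neurog3* had 0.48 ± 0.37 and *Clic6* 0.34 ± 0.12, which did not pass the test. Of the 19 genes of undifferentiated spermatogonia, 10 rose in these germ cells and none fell, with a median of 0.46, among them *Zbtb16* (0.41) and *Gfra1*. In the same libraries, general germ cell genes had a median of 0.23, with 4 of 12 higher and none lower, and Sertoli cell genes had a median of -0.53, with 4 of 14 lower and none higher. The part that somatic RNA in the sort had in these values was not tested. Of 31 early meiosis genes 15 fell there and none rose. Of the 466 shared falls with no difference called, 354 were lower at P14.5 and none higher, and 106 of 464 were lower in the germ cells and none higher.

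**Figure D4:**
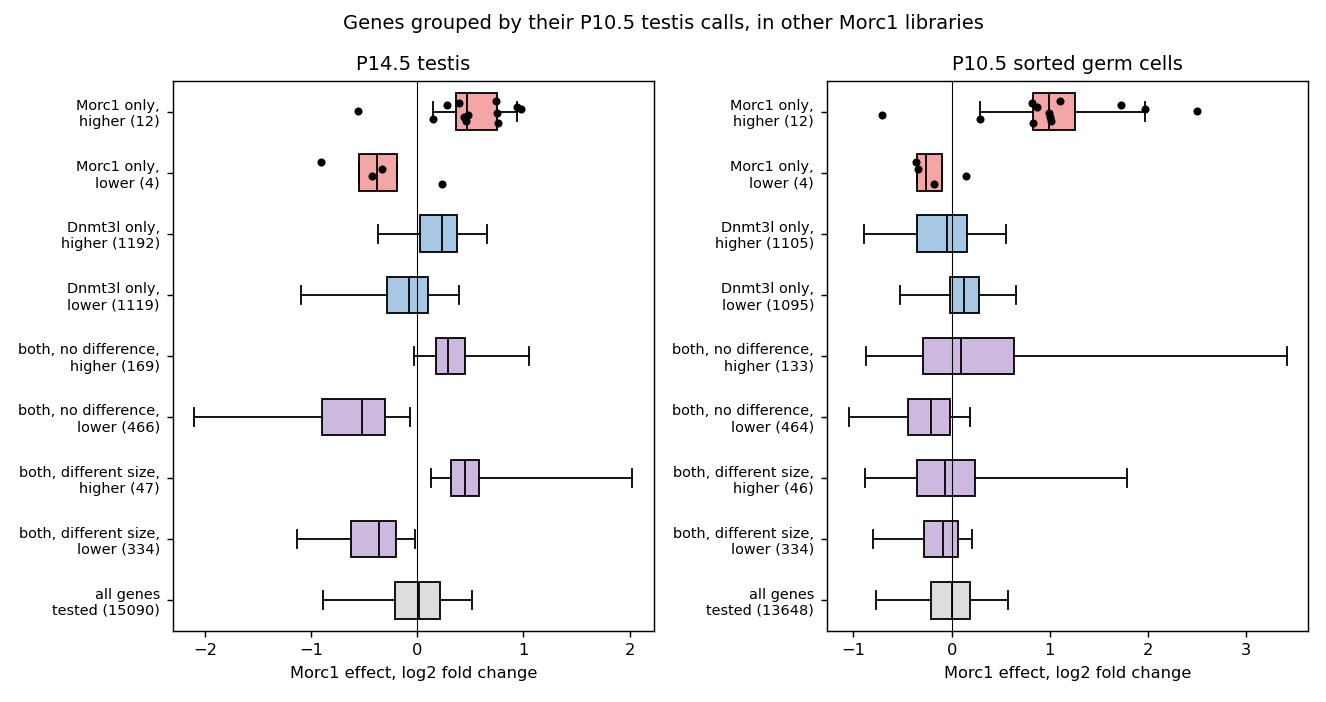
Log2 effect of *Morc1* tg/tg in P14.5 testis (left) and P10.5 sorted germ cells (right) for genes grouped by their P10.5 testis calls, with the number of genes in brackets; boxes span the quartiles with the median as a line, whiskers reach the 5th and 95th percentiles, and dots are single genes in groups under 20. *Morc1*-only rises have medians of 0.47 and 0.99, and *Dnmt3l*-only falls of -0.08 and 0.13.

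Promoters of 1 gene from each of 4 groups are shown because DNA methylation in mammals falls mostly on cytosines that precede guanine, and these promoters differ in how many such pairs they hold. Each is the 250 bases before the start of the gene in RefSeq's table for GRCm38.p6, which is a later build than the mm9 of the counts, written 5′ to 3′ on the strand of the gene with each CG in capitals.
*Rab6b*, *Morc1* line only, chr9:103111824-103112073, + strand: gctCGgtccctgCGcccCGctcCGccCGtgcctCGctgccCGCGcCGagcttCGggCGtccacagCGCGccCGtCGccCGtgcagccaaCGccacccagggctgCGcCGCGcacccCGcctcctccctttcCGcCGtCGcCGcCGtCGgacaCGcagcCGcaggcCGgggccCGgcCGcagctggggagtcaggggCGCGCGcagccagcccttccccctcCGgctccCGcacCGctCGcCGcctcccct
*Neurog3*, *Dnmt3l* line only, chr10:62132840-62133089, + strand: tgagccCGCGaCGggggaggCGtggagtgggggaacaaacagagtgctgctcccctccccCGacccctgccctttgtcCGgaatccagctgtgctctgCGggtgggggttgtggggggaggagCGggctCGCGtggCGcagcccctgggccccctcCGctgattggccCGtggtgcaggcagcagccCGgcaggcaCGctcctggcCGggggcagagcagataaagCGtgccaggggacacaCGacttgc
*Clec2g*, higher in both lines, chr6:128934131-128934380, + strand: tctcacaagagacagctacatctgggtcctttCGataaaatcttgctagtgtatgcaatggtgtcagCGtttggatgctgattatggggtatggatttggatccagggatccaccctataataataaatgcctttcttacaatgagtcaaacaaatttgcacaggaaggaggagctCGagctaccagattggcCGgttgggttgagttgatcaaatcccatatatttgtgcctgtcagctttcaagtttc
*Esx1*, lower in both lines, chrX:137120327-137120576, - strand: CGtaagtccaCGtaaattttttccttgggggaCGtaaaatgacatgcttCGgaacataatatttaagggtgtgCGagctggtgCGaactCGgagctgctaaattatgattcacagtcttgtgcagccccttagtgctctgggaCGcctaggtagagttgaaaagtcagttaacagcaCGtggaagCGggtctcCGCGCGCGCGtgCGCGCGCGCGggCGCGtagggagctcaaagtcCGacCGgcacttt

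These windows hold 40 CG for *Rab6b*, 18 for *Neurog3*, 4 for *Clec2g* and 24 for *Esx1*. Over the 11101 tested genes with a promoter in the table, the window from 250 bases before to 50 after the start held a median of 20 CG. The median was 22 for *Dnmt3l*-only falls and 19 for rises, 23 for genes that fell in both lines and 11.5 for genes that rose in both. It was 12.5 for the 10 *Morc1*-only rises with a window and 18 for the 4 falls, so the 40 CG of *Rab6b* are not typical of its group. The letters CACGTG, an E-box with a central CG that reads the same on both strands, occurred in 9.86% of all windows, 14% of *Dnmt3l*-only falls and 20.1% of the genes that fell in both lines by different amounts, among them *Esx1*, but in 8.38% of those that fell in both with no difference called. The letters TCCCGC, searched on both strands as the core of sites for E2F factors, occurred in 34.5% of all windows, 39.2% of *Dnmt3l*-only falls, 41.7% of the genes that fell in both lines by different amounts and 50% of those that fell in both with no difference called. A match describes letters and not a bound site, and these shares were not tested.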

How the data were processed

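Whole testis mRNA-Seq libraries were made from 1 mouse each. Per the study's methods, the authors discarded ribosomal RNA reads, mapped the rest to the mm9 genome with its gene annotation, kept uniquely mapping reads and counted them per gene with HTSeq. The sources used here do not name the aligner of this step. The deposited files hold raw counts of reads per gene, and RPKM values that the authors calculated as reads scaled to exon length and to the mapped reads of the library. Counts were tested and RPKM served to show levels. Samples were grouped by their labels. Of 26385 genes, 15902 passed filterByExpr and were fitted over the 15 libraries, 4 arms in 1 model, with edgeR 4.0.16 (TMM scaling, quasi-likelihood test, Benjamini-Hochberg adjustment over all genes tested, threshold 0.05). The P14.5 testis and germ cell libraries were fitted separately. DESeq2 1.42.0 and limma 3.58.1 (voom) were alternatives. Members, gene lists and rules were chosen with earlier results of these data known. Named genes were the targeted genes, up to 4 of a list, and up to 6 per group and direction with the largest difference between the lines, or the largest smaller effect for shared genes. Those chosen by their difference had a mean of at least 1 RPKM in an arm of the responding line, had mutants all beyond its controls in log2 CPM, and lay over 5 Mb from *Morc1* and *Dnmt3l*. For genes called in both lines, in opposite directions or the same way, the level and the separation were asked of both lines. Of the genes that this rule names, 2 are not reported here. Replicate numbers did not pair the samples (correlations from -0.42 to -0.0061). The fit was tested on simulated data. Labels do not exclude that littermates share a group. Promoter sequences are RefSeq's (GRCm38.p6), matched by symbol for 11101 of the genes tested.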

Additional observations from a re-analysis of the deposited data

Results flagged for a closer look

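The count of genes whose effect differed between the lines was 2797, and each difference below is the *Morc1* effect minus the *Dnmt3l* effect on the log2 scale, called in the test of the difference itself. None was weighed for a cause.

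In the *Morc1* line only, the difference was 0.75 for *Mapk12*, 0.71 for *Gyltl1b*, 0.7 for *BC039771*, 0.63 for *Rab6b* and 0.58 for *Itga1*. It was -0.48 for *Rbl1*, -0.46 for *Spc25*, -0.29 for *Prdx4* and -0.46 for *Col18a1*. Members under the level set for naming, or beyond the 6 named, had 1.91 (*Cdkl4*), 1.3 (*Six4*), 1.89 (*Ch25h*), 0.71 (*4930539E08Rik*), 0.34 (*Parp8*), 0.33 (*Rragd*) and 0.31 (*Sorbs2*).

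In the *Dnmt3l* line only, the rises gave differences of -2.41 (*Fam155a*), -2.37 (*Slc39a4*), -2.35 (*Miox*), -2.22 (*Spna1*), -2.16 (*Serpina12*) and -2.15 (*G530011O06Rik*). The falls gave 3.68 (*Foxn4*), 3.57 (*Fam183b*), 3.27 (*Dppa3*), 3.26 (*Lef1*), 2.98 (*Neurog3*) and 2.86 (*Clic6*).

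Of the genes called in opposite directions, *2010300C02Rik* differed by 2.03, *Parn* by 0.49, *Pttg1* by -0.48 and *Rab28* by -0.36. Of those called the same way in both lines, *Gm1698* differed by 4.98, *Cd209c* by 1.82, *Ctsh* by 1.1 and *Esx1* by 1.02. The targeted genes differed by -0.9 (*Morc1*) and 3.3 (*Dnmt3l*).

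In the group of 6 *Dnmt3l* controls, 1 library stood apart for 2 of 51 genes looked at. *Dnmt3l* +/- replicate 3 was the highest for *Parp8* and for *Morc1*, with a gap to the next library of 0.643 and 0.653 of the group's range, above Dixon's critical value for 6 samples. Such a gap arises by chance in about 5% of groups.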

How the results depend on the processing

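Alternatives were run for 50 single genes and 7 counts of genes called. No single gene changed the sign of its difference where that was called in the main fit or the alternative. The counts within gene lists and the shares by expression, chromosome and promoter letters were not recomputed. Of the counts recomputed, 108 stayed within 1.5 times their value and 35 moved by more. Of the values of single genes, 1123 stayed as they were, either called or not called in both fits. Among those not called in both, a change of sign was not counted. A call was lost in 113, mostly for *Prdx4* (16), *BC039771* (14), *Rbl1* (14), *Cdkl4* (13) and *Esx1* (10), and gained in 8. DESeq2's size factors moved the median difference over all genes by less than 0.1. With voom, the genes called were 5234 for the difference and 3957 in the *Morc1* line, and 179 responded in the *Morc1* line only. That group held 27 genes with *Dnmt3l* +/+ and 10 with *Dnmt3l* +/- as the only controls. With the preliminary *Morc1* libraries added as controls and a batch term, it held 20 genes, and 3070 differences and 1305 *Morc1* effects were called. With *Morc1* tg/+ as the only controls, which leaves out the 1 *Morc1* +/+ library, 1755 differences and 549 *Morc1* effects were called, and 3 and 1551 genes responded in the *Morc1* and the *Dnmt3l* line only. With the replicate number as a block, although the numbers did not pair the samples, the counts were 1689, 499, 8 and 1522. Fitted separately, an alternative chosen after seeing the data, the lines gave 53 *Morc1*-only genes and 2326 *Morc1* effects. Leaving out each library in turn gave 1753 to 4021 differences, 404 to 1291 *Morc1* effects, 7972 to 9575 *Dnmt3l* effects, 3 to 30 *Morc1*-only and 1480 to 3414 *Dnmt3l*-only genes, 3517 to 5001 effects at P14.5 (5323 with all) and 1144 to 1824 in germ cells (1712 with all). The cause of these shifts was not tested. Of the 17 *Morc1*-only genes, 14 were kept with DESeq2, 16 with voom and 6 with the block.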
